A study of Mus musculus with 18 samples.

Results

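Heme synthesis, heme breakdown and P450 reductase are represented here by 9 mouse genes. Alas1, Alad, Urod, Cpox, Ppox and Fech encode enzymes that build heme, and Hmox1 and Blvrb encode enzymes of the heme breakdown pathway. Por encodes the reductase that feeds electrons to microsomal cytochrome P450 enzymes and to heme oxygenase. The genes were chosen by name, with earlier results of these data known, and their sites were chosen by position. A peak was assigned to a gene when its centre lay inside the gene or within 10 kb of either end. By this rule 13 of 11366 peaks belonged to the 9 genes, 8 of 4813 in liver, 5 of 4034 in kidney and 0 of 2519 in heart.

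The peaks mark binding of BMAL1, the clock transcription factor that acts on DNA together with CLOCK or NPAS2, and come from chromatin immunoprecipitation with sequencing of liver, kidney and heart. All 3 tissues were from wild type C57BL/6 mice aged 3 to 6 months, with 3 mice per tissue and each tissue taken from the same animals. The mice lived on 12 h light and 12 h dark cycles with free access to food and water and no stated treatment, and tissues were taken at 6 h after lights on, a single time of day. The 18 libraries comprised 3 ChIP and 3 input libraries per tissue, and the antibody was a chicken serum, affinity purified, against the N-terminal domain of mouse BMAL1. The authors called peaks once per tissue on all its libraries together, so the lists used here give no value per animal and no read depth, and no error can be attached to the values below. The 3 heart input libraries name kidney in the source field, although title and tissue say heart; what this means for the heart list was not tested.

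Heme is the iron-containing ring that serves as the prosthetic group of hemoglobin, of respiratory cytochromes and of the P450 enzymes, and liver makes large amounts of it for the last of these. Its synthesis starts in mitochondria with the enzyme ALAS1, which sets the rate in most tissues outside the red cell lineage, passes through the cytosol with ALAD and UROD, and returns to mitochondria for the steps of CPOX, PPOX and FECH. Heme is also tied to the clock itself, since it is the ligand of the REV-ERB receptors and binds NPAS2. CLOCK and BMAL1 are known to bind the E-box, a short DNA element with the sequence CACGTG.

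The sequences around the start sites show which of the genes hold this element there. RefSeq windows of 300 bases (assembly GRCm38.p6, from 250 bases before to 50 bases after a start site, on the strand of the gene) were matched for 7 of the 9 genes, 10 windows in all. Fech and Hmox1 had no window, so they were not searched and no distance from a start site is given for their peaks. The 10 windows were searched on both strands for CACGTG and for the related element CACGTT, which reads AACGTG on the other strand. Capitals mark the matches. Alad, Urod and the inner start of Blvrb are shown because they hold a match, and Por because the liver peak nearest to its start lies just upstream. The windows are Alad chr4:62519860-62520159 and chr4:62520014-62520313 (minus strand, sharing 146 bases), Urod chr4:116994364-116994663 (minus strand), Blvrb chr7:27452168-27452467 (plus strand) and Por chr5:135688895-135689194 (plus strand).
Alad, start 62519909: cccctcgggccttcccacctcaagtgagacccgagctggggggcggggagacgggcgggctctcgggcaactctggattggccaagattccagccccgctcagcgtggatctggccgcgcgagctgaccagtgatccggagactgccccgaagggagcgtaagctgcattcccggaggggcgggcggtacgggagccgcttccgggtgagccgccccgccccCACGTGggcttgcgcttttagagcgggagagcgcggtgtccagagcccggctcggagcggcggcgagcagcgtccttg
Alad, start 62520063: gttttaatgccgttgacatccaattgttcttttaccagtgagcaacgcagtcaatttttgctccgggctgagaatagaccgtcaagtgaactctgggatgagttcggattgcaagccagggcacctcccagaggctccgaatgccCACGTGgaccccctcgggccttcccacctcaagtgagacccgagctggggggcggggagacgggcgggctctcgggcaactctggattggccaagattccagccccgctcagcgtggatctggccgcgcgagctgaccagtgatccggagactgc
Urod, start 116994413: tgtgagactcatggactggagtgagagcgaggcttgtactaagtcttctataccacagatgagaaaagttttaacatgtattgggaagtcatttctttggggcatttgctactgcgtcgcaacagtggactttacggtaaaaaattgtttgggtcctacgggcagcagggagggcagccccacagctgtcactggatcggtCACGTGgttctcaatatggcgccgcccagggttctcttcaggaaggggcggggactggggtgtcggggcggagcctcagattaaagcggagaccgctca
Blvrb, inner start 27452418: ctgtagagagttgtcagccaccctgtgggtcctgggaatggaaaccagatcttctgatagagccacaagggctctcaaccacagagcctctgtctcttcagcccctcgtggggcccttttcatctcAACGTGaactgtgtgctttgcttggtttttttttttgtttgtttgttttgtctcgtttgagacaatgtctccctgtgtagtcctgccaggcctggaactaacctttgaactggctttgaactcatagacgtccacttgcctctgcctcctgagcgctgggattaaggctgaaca
Por, start 135689145: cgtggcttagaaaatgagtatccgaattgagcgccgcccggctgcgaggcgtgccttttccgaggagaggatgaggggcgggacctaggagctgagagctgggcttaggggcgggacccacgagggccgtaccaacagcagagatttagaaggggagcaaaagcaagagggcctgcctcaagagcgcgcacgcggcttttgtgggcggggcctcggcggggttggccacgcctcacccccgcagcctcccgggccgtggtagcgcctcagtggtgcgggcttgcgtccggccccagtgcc

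CACGTG was present in 3 of the 10 windows. The 2 Alad windows held it at -28 to -23 and at -105 to -100 relative to their own start sites, which makes 2 separate elements, and the Urod window at -49 to -44. Of all 32851 RefSeq windows, 7.15% held CACGTG, and it was found in 38.5% of the 1048 windows that a liver peak overlapped by at least 1 bp. Most windows with the element had no peak in these lists, but more of them had one than of the windows without it: 27.8% of the 2349 windows with CACGTG were overlapped by a peak of any tissue, against 4.69% of the 30502 windows without it. The 3 windows of Alad and Urod belonged to the uncovered majority. AACGTG was found in 1 window, that of the inner Blvrb start, and CACGTT or AACGTG in 4.68% of all windows. No match in the windows of Alas1, Cpox, Ppox, the outer Blvrb start and Por says only that these letters are not in these 300 bases.

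Peaks were then counted per gene. In liver, 5 of the 9 genes had at least 1 peak (Alas1, Urod, Fech, Blvrb and Por), in kidney 3 (Alas1, Hmox1 and Por) and in heart none. Among all 21887 protein-coding genes the same rule gave 18.1% with a liver peak, 18.0% with a kidney peak and 11.5% with a heart peak. The 9 genes thus stood at 55.6% in liver, 33.3% in kidney and 0% in heart. Any peak was found at 6 of the 9, against 30.7% of protein-coding genes, and both a liver and a kidney peak at 2 of the 9, Alas1 and Por, against 9.78%. A peak in all 3 lists, found at 4.35% of protein-coding genes, was found at none of the 9. With only 9 genes, chosen with earlier results of these data known, and pooled lists, these shares are descriptions and were not tested. The genes had a median length of 14.1 kb, against 17.2 kb for all protein-coding genes. Por, at 65.3 kb, was the longest, 82.5% of protein-coding genes are no longer than it, and it held 6 of the 13 peaks. The part of gene length in these shares was not tested.

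**Figure D1:**
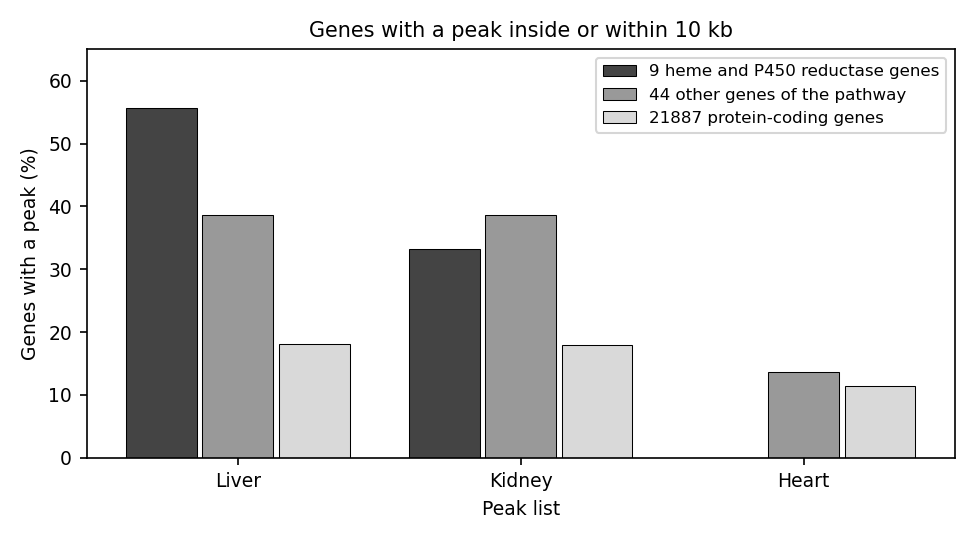
Bars give the share of genes (y axis, %) that had a peak centre inside the gene or within 10 kb, in each peak list (x axis), for the 9 heme and P450 reductase genes, the 44 other genes of the pathway and 21887 protein-coding genes. The 9 genes stand at 55.6% in liver, 33.3% in kidney and 0% in heart, beside 18.1, 18.0 and 11.5% for protein-coding genes. The 9 and the 44 genes were chosen with earlier results of these data known.

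Por had the most peaks and the highest-ranked ones. The gene (gene ID 18984) lies on the plus strand at chr5:135670040-135735326, and its RefSeq start at 135689145 is 19.1 kb inside the lower end of the annotated gene. Its 4 liver and 2 kidney peaks fell on 4 sites. The first site lay 14.1 to 14.2 kb upstream of that start, inside the annotated gene, and was found in liver (chr5:135674874-135675115, score 109, rank 375.5 of 4813) and in kidney (chr5:135674907-135675094, score 134, rank 95.5 of 4034). The score is a whole number per peak given by the authors, of unstated meaning, and serves here only to rank peaks within a list, with tied peaks sharing their mean rank. The centres of the liver and kidney peaks at this site were 6 bp apart.

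The second Por site was found in liver only (chr5:135688561-135688802, score 100, rank 460.5) with its centre 463.5 bp upstream of the start, next to the window printed above. The third was also in liver only, 6.19 kb downstream of the start (chr5:135695217-135695458, score 37, rank 2583). The fourth lay 18.9 kb downstream and was again found in both tissues, in liver at chr5:135707933-135708174 (score 65, rank 1170.5) and in kidney at chr5:135707953-135708140 (score 42, rank 1136.5), with centres 7 bp apart. Both tissues therefore had the outer sites, and liver alone had the 2 sites closest to that RefSeq start. This order depends on the start taken. The liver centre of the first site was 4954.5 bp inside the lower end of the annotated gene. In liver the first and second sites were in the top 10% of the list, at 7.80 and 9.57%, and in kidney the first was at 2.37%. All 6 peaks had Por as the nearest protein-coding gene. At least 4 liver peaks in or near the gene were found at 88 protein-coding genes (0.402%), and at least 2 kidney peaks at 773 (3.53%). These cutoffs were the counts of Por itself, a long gene, and the part of gene length in them was not tested. The kidney class also held Alas1, a gene of 14.5 kb.

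The first Por site was set against the rest of the kidney list, a comparison chosen after its rank had been seen. The score cutoffs in this comparison were the scores of the Por peaks themselves. Of the 96 kidney peaks with a score of 134 or more, 95 overlapped a heart peak, and the 1 that did not was the peak at Por. The nearest heart peak to it was 525 kb away. The next kidney peaks in rank without a heart peak were nearest to Usp53 (rank 111.5) and Pacsin2 (rank 116), which had heart peaks 32.1 and 17.2 kb away. In the liver list the same site was less of an exception, since 148 of the 380 peaks with a score of 109 or more had no heart overlap. The second Por site, in liver only, was 1 of 79 single-tissue peaks among 464 liver peaks with a score of 100 or more (17.0%). At the fourth site, with a kidney score of 42, 634 of the 1154 kidney peaks of that score or more had no heart overlap.

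**Figure D2:**
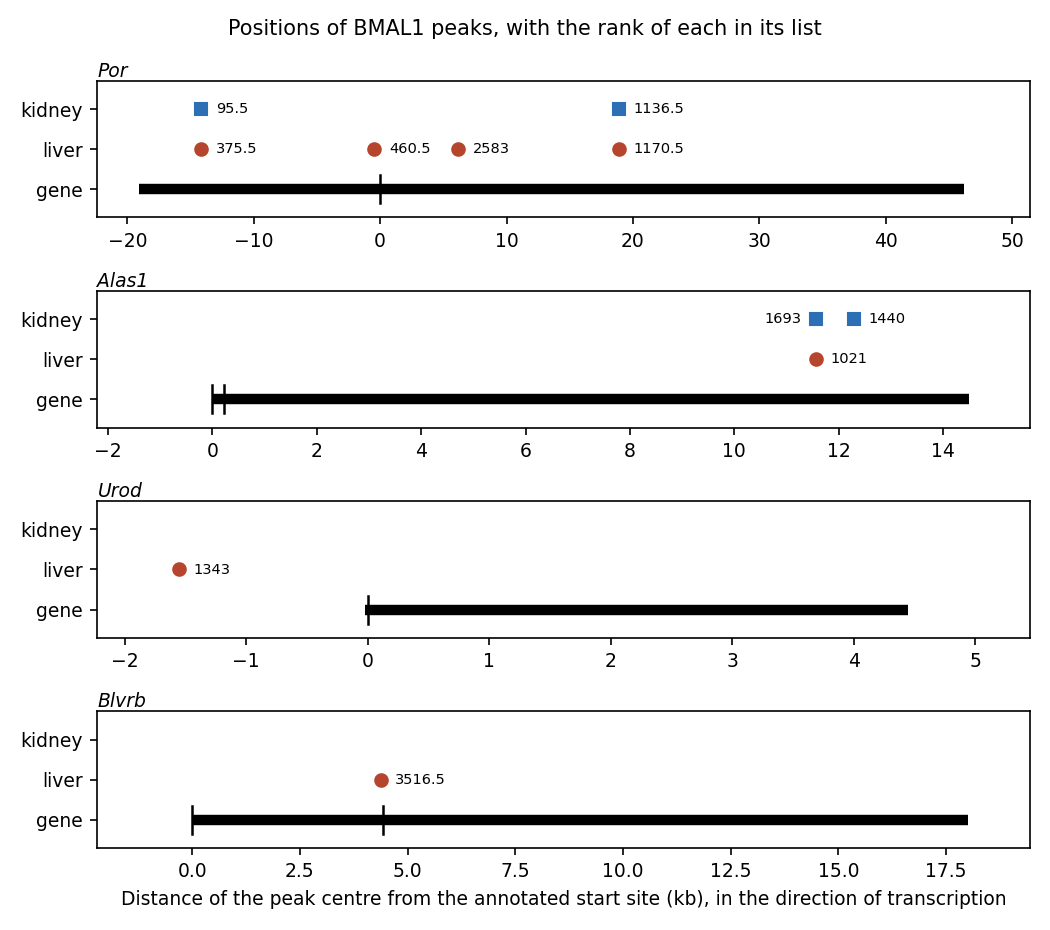
Each panel shows 1 gene as a black bar, with its RefSeq start sites as vertical ticks, and peak centres as circles for liver and squares for kidney; the x axis is the distance in kb from the outermost start site in the direction of transcription, and the number beside each symbol is the rank of the peak in its list. Por has 4 sites of which the outer 2 are in both tissues, Alas1 has its sites toward the far end of the gene, Urod has 1 liver peak upstream, and the Blvrb peak lies at the inner start site.

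Alas1, the gene of the first enzyme of the pathway, had peaks in liver and kidney, all toward its far end. The gene (gene ID 11655) lies on the minus strand at chr9:106233455-106247954, with start sites at 106247954 and 106247730. The liver peak (chr9:106236264-106236505, score 70, rank 1021 of 4813) and a kidney peak (chr9:106236298-106236485, score 32, rank 1693 of 4034) were the same site, with centres 7 bp apart, 11.3 kb downstream of the nearer start. A second kidney peak, of higher score (chr9:106235566-106235753, score 36, rank 1440), lay 12.1 kb downstream and had no liver partner, although its centre was only 725 bp from that of the shared site. None of the 3 peaks was near a start site of Alas1, and no peak of any list overlapped its start windows. The only other protein-coding gene with an end within 10 kb was Tlr9, a receptor for microbial DNA, with its nearer end 8.78 to 9.52 kb from these centres; Alas1 itself contained all of them. Another kidney peak, outside the window (rank 2666), 30.4 kb from Alas1, was nearest to Twf2. The nearest heart peak was 120.0 kb away, nearest to Dusp7.

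Alad, the gene of the second enzyme (gene ID 17025, chr4:62505984-62520063, minus strand), had no peak in any list by this rule in spite of its 2 CACGTG elements. Its nearest peak was in kidney, 26.0 kb from the gene and nearest to Bspry, with a rank of 3401 of 4034. The nearest liver and heart peaks were 202 and 710 kb away. A gene with the element in both start windows was thus without a peak at this time of day in these lists, which does not show that the sites are never bound.

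Urod encodes the enzyme that removes carboxyl groups from uroporphyrinogen. The gene (gene ID 22275, chr4:116989965-116994436, minus strand) had 1 peak, in liver (chr4:116995843-116996084, score 60, rank 1343), 1.55 kb upstream of its start and thus well outside the window with CACGTG. This peak lay inside the neighbouring gene Hectd3, a ubiquitin ligase gene, 667.5 bp from an end of it, and an end of Zswim5 was 6.86 kb away. Its assignment to Urod therefore rests on the 10 kb window, and by nearest gene it belonged to Hectd3. The nearest kidney and heart peaks were 142 and 689 kb from Urod.

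Cpox and Ppox, whose enzymes carry out the oxidation steps before iron is inserted, had no peak in any list. Cpox (gene ID 12892, chr16:58670208-58680391, plus strand) was the most isolated of the 9 genes, with its nearest liver peak 792 kb away, heart 921 kb and kidney 2775 kb. Ppox (gene ID 19044, chr1:171276991-171281193, minus strand) had its nearest peak in kidney at 64.4 kb, with rank 3243 of 4034, its nearest heart peak at 174 kb and its nearest liver peak at 392 kb. Neither gene had an E-box or the related element in its start window.

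Fech, the gene of ferrochelatase, which inserts iron into the ring and completes heme, had 1 peak, in liver and in no other list. The gene (gene ID 14151) lies at chr18:64456542-64489098, and the peak (chr18:64489076-64489317, score 91, rank 576 of 4813, 12.0% of the list) straddled its upper end, with the centre 98.5 bp outside. It had the highest liver score at the 6 synthesis genes and among all liver peaks of the 9 genes was below only the 2 highest-scoring at Por. Of the 582 liver peaks with a score of 91 or more, 109 (18.7%) were in no other list. The nearest kidney and heart peaks were 172 and 719 kb away.

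The breakdown genes had 1 peak each, ranked below the middle of its list. Hmox1 encodes heme oxygenase 1, the inducible enzyme that opens the heme ring. The gene (gene ID 15368, chr8:75093618-75100593) had a kidney peak alone (chr8:75093498-75093685, score 25, rank 2290 of 4034), which straddled the lower end of the gene, with its centre 26.5 bp outside. This rank is below the middle of the kidney list, at 56.8%, and 107 kidney peaks share its score. The nearest liver peak was 59.9 kb away, nearest to Tom1, and the nearest heart peak was 112 kb away.

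Blvrb encodes biliverdin reductase B, a flavin reductase that also reduces biliverdin. The gene (gene ID 233016, chr7:27447978-27465981, plus strand) had a liver peak alone (chr7:27452230-27452471, score 27, rank 3516.5 of 4813, 73.1% of the list), the lowest-scoring of the 8 liver peaks. Its centre was 67.5 bp upstream of the inner start at 27452418, and 238 of its 242 bases are inside the window printed above. The AACGTG of that window, at chr7:27452294-27452299, was 54 bp from the centre of the peak. An end of Sptbn4, a spectrin gene, was 4.65 kb from the peak.

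The 10 kb limit mattered most at Blvrb. All 13 assigned peaks were inside their gene or less than 100 bp from it, apart from the Urod peak at 1.53 kb, so none was near the limit from within. Just outside it, 15.7 kb from Blvrb and nearest to Sertad3, was a site found in all 3 tissues, with ranks 210 in liver, 101.5 in kidney and 248.5 in heart. Another site of all 3 tissues, 20.9 kb from Blvrb and nearest to Sertad1, had ranks 80, 92 and 57.5, and a heart peak (rank 499.5) followed at 24.7 kb. These were the only heart peaks within 50 kb of any of the 9 genes, and they lie closer to the Sertad genes than to Blvrb.

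**Figure D3:**
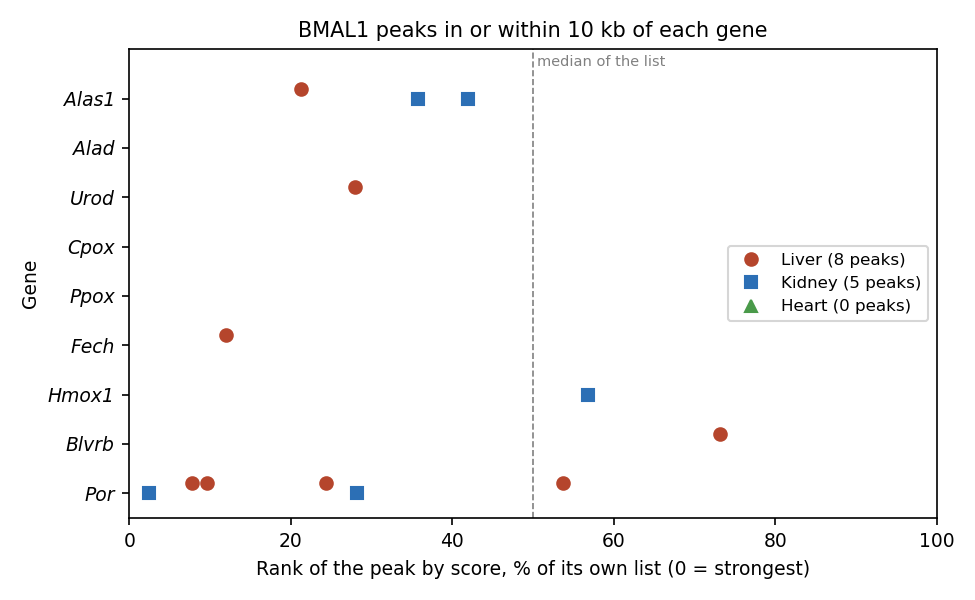
Each symbol is 1 of the 13 peaks assigned to the 9 genes, with the gene on the y axis and the rank of the peak by score, as a percentage of its own list, on the x axis (0 is the highest score; the dashed line marks the middle of the list). The Por peaks reach 2.37% in kidney and 7.80% in liver, the single peaks of Hmox1 and Blvrb are at 56.8 and 73.1%, and no symbol for heart appears.

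Among themselves the 13 peaks differed widely in rank. The liver ranks ran from 375.5 to 3516.5 with a median of 1095.75, and 6 of the 8 peaks were in the upper 50% of the list. The kidney ranks ran from 95.5 to 2290 with a median of 1440, and 4 of the 5 were in the upper 50%. Peaks in the top 10% of a list were those of the first 2 Por sites alone. Merging peaks that overlap by at least 1 bp gave 10 sites, of which 3 were in liver and kidney (1 at Alas1 and 2 at Por), 5 in liver alone and 2 in kidney alone. Of the 8 liver peaks 3 had a kidney partner, beside the 30.7% of the whole liver list, and of the 5 kidney peaks 3 overlapped a liver peak, where the whole kidney list has 36.6%. Overlap with a heart peak was 13.6% over the liver list and 18.5% over the kidney list, and 0 of 13 here.

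The 2 genes with peaks in both liver and kidney, Alas1 and Por, lacked a heart peak, as did 1187 of the 2140 protein-coding genes with both; the other 953 (44.5%) had one. The heart list is the shortest and its depth is unknown, so a site missing from it is not shown to be unbound, and weaker binding in heart cannot be told apart from lower sensitivity of the list.

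**Figure D4:**
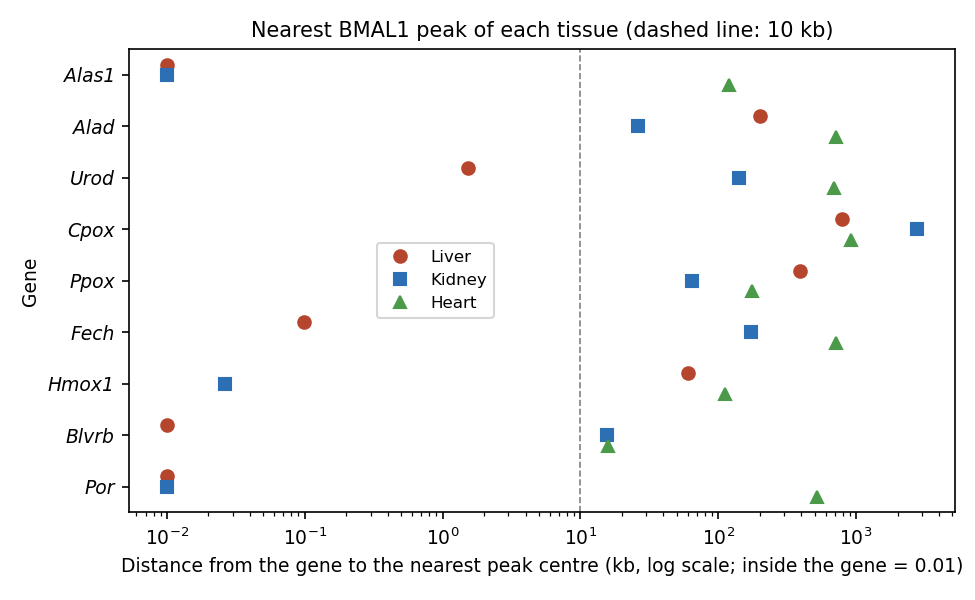
For each gene (y axis) the distance in kb, on a log axis, to the nearest peak centre of each tissue; circles are liver, squares kidney and triangles heart, peaks inside the gene are drawn at the leftmost position, and the dashed line is the 10 kb limit. Every triangle is right of the line, from 15.7 kb at Blvrb to 921 kb at Cpox, and Alad, Cpox and Ppox have no symbol left of it.

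Other genes of heme and iron handling, 44 in 6 lists, were examined by the same rule. These lists too were chosen with earlier results of these data known. Of the 44 genes, 17 had a liver peak (38.6%), 17 a kidney peak (38.6%) and 6 a heart peak (13.6%), and 21 had none. Beside the same shares over all protein-coding genes (18.1, 18.0 and 11.5%), the liver and kidney shares were higher and the heart share was close. Over all protein-coding genes, 30.7% had a peak in any list and the rest had none. By nearest gene the liver peaks of Hmox2, Tspo, Mafg, Ftl1 and Ireb2 belonged to other genes. So did the kidney peaks of Hmox2 and Ftl1, and the kidney peak of Uros was equally near to Bccip. The lengths of the 44 genes were not compared with those of all protein-coding genes. Of the enzymes Alas2 and Uros only Uros had a peak, in kidney at rank 3718, and of Hmox2 and Blvra only Hmox2, with a liver and a kidney peak that lay closer to Nmral1. Of 16 heme and porphyrin transport genes 4 had a liver, 5 a kidney and 3 a heart peak, and of 6 electron partners of the P450 enzymes and heme oxygenase 1 had a liver, 2 a kidney and 1 a heart peak. Of 10 regulators of heme genes 6 had a liver peak, 4 a kidney peak and 1 a heart peak, and of 8 iron supply and storage genes 5, 4 and 1 did.

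Peaks in all 3 lists were found at 3 of the 44 genes (6.82%), near the 4.35% of all protein-coding genes. Nfe2l2, whose product NRF2 is a stress-responsive activator of Hmox1, had 1 site in all 3 tissues, inside the gene (ranks 247 in liver, 291.5 in kidney and 254.5 in heart). Lrp1, a receptor that takes up hemopexin-bound heme, had a site upstream of its start in all 3 tissues, high in the liver list (rank 84) and low in the kidney list (rank 3401), with heart at rank 950.5. Aco1, the gene of the iron-sensing protein IRP1, had peaks in all 3 lists but no site common to all, with its highest heart rank at 1900. Beside Lrp1 and Nfe2l2, peaks in the top 10% of a list were found only at Slc25a39, the gene of a mitochondrial glutathione carrier. There 1 site 1.08 to 1.09 kb upstream of the start, inside the annotated gene near its end, was at rank 140 in liver and 141.5 in kidney. It had no heart partner. A second site of liver (rank 1717.5) and kidney (rank 1271.5) had its centres 16.5 and 66.5 bp upstream of the start. Slc25a39 was 1 of 9 genes among the 44 that had liver and kidney peaks and no heart peak (20.5%). Por and Alas1 are in this class too, which holds 5.42% of all protein-coding genes. Unlike at Por and Alas1, the liver and kidney peaks of Abcb10 and Slc11a2 shared no site. Those of Hmox2 and Ftl1, and the shared site of Mafg, were nearest to other genes.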

How the data were processed

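The 3 peak lists were used as the authors deposited them, 1 per tissue, each called on the pooled replicates and inputs, per the labels. Per the submitters' processing notes, Bowtie2, SAMtools and HOMER were used with the build mm10. Roles, versions and filters of these tools were not given in the sources used here. The score in column 5 of each deposited list is a whole number of unstated meaning, and was used only to rank peaks within a list. All peaks of a list have 1 width (242 bp for liver, 188 bp for kidney, 198 bp for heart).

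Genes and start windows came from RefSeq tables of GRCm38.p6 (mm10 is another name of GRCm38), and all 9 genes and all 44 other genes matched a symbol; 1 gene of the lists is not reported here. Peak centres were assigned with python 3.11.15 and pandas 2.3.3, and the assignment was tested on lists with planted peaks. Peaks overlapping by at least 1 bp counted as shared. The lists give no depth, so no interval is given, and no test was made because each tissue has 1 pooled list. The genes and the lists were chosen with earlier results of these data known. The text names the 9 genes whatever their values. It also names other pathway genes with a peak in all 3 lists or in the top 10% of a list. Protein-coding neighbours with an end within 10 kb of a peak are named as well. Uros, Hmox2, Tspo, Mafg, Ftl1, Ireb2, Abcb10, Slc11a2 and genes nearest to other peaks were named after their values were seen. A planned list of genes most like a member with peaks in all 3 lists is empty, since no member has them. The window, the assignment rule, the threshold on peaks, the overlap rule, the treatment of ties and the motif were varied. E-boxes were searched only in the start windows, since no genome sequence was used here.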

Additional observations from a re-analysis of the deposited data

How the results depend on the processing

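Over 137 comparisons of a count or rank with its value under another setting, 116 stayed within 1.5 times and 21 did not. Part of the 116 was fixed in advance, so this tally does not measure how stable the results are. Heart peaks, absent at 10 kb, could not appear under a narrower window or a stricter cut of the lists. The rules for ties could move a rank only among peaks of the same score. Restricting genes to their body left 3 genes with a liver peak and 4 single-tissue sites. The upper 50% of each list by score also left 4 single-tissue sites. A window of 25 kb gave 1 gene with a heart peak (Blvrb, through 3 heart peaks), 1 gene with peaks in all 3 lists and 2 sites common to all; 50 kb gave the same 1, 3, 1 and 2, with 5 genes and 10 peaks in kidney and 12 single-tissue sites. The top 1000 peaks of each list left 2 genes and 3 peaks in liver, 1 gene and 1 peak in kidney, 1 site in liver and kidney and 2 single-tissue sites. The motif CANNTG was found in 5 of the 10 start windows and in 72.3% of all windows, where CACGTG was found in 3 and in 7.15%. Counting a peak by any base, only peaks nearest to the gene, equal list lengths, the other overlap rules and ties moved no count or rank by over 1.5 times. No paired analysis was possible because the deposited lists used here pool the replicates, and they allow no replicate to be left out. These lists give no read depth, so a site missing from a list is not shown to be unbound.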
